A study of Homo sapiens with 4 samples.

Results

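The BCL2 family decides whether the outer membrane of the mitochondrion stays closed or is opened, and 10 of its genes, BCL2L1, MCL1, BAX, BAK1, BBC3, PMAIP1, BID, BCL2L11, BAD and BIK, were followed in laryngeal squamous cell carcinoma (LSCC) cells with and without knockdown of SKA3. The members were taken by name from the deposited table, and each of the 10 had a row among its 28729 genes. All libraries came from TU-177, a human LSCC cell line in long use. According to the labels, lentivirus brought in an shRNA against SKA3 (SKA3-KD) or a negative control shRNA (NC), and cells of both groups had survived puromycin before RNA was taken. The study's methods also describe siRNA against SKA3, and stable SKA3 knockdown lines made with sgRNA and Cas9. They do not say which kind was sequenced, so the route by which SKA3 RNA fell is known from the labels alone. Each group had 2 libraries, numbered 1 and 2, so all values below rest on 4 libraries. The labels do not say whether the libraries of a group came from separate transductions, how many shRNA sequences were used, or whether a library was 1 clone. The p-values therefore measure the spread between these libraries, which may be technical. SKA3 is a subunit of the complex that holds kinetochores to spindle microtubules, and the study asked what its loss does to growth, glucose use and the response to cisplatin.

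Members of the family fall into 3 roles. Guardians such as BCL-XL, the long product of BCL2L1, and MCL1 hold the effectors in check. The effectors BAX and BAK1, once active, assemble in the outer membrane and release cytochrome c, which starts the caspase cascade. BH3-only proteins sense damage or lost survival signals and bind guardians, effectors or both through a short helix, the BH3 region. Most of this control acts on the proteins, by cleavage, phosphorylation, turnover and binding, and none of that is seen in RNA.

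The BH3 region is the feature that the members have in common and the selection by name did not use, so its coding sequence is shown for each. A short core was searched in the coding sequence of 1 transcript per gene (GENCODE 29, GRCh38), as a leucine codon, any 2 codons, a codon for alanine, valine, isoleucine, methionine or phenylalanine, a codon for glycine, alanine or serine, and an aspartate codon. The pattern was written with the cores of these members known, so its presence in them is a description. It was narrower than first planned, which allowed any codon before the glycine position. A family gene without the pattern can therefore still have a BH3 region, and the counts do not set the members apart from the other family genes. It occurred once in each of the 10 members, in 2172 of 19512 coding sequences searched (11.1%) and in 2 of the 13 remaining family genes, BCL2 and BMF. The 36 bases around the core follow 5′ to 3′ on the coding strand, with the 18 bases of the core in capitals.
BCL2L1: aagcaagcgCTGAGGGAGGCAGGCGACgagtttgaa
MCL1: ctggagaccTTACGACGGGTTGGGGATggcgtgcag
BAX: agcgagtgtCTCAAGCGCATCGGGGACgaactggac
BAK1: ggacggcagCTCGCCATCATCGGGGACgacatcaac
BBC3: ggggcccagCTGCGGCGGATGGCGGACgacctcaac
PMAIP1: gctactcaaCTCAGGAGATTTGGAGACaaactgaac
BID: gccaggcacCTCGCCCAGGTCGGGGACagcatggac
BCL2L11: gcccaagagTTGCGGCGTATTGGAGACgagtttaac
BAD: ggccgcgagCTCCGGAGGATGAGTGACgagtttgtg
BIK: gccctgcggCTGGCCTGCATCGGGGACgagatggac
In these letters BAX, BAK1, BID and BIK share the last codons GGGGAC of the core, BCL2L1 has GGCGAC and MCL1 GGGGAT. The glycine position is an alanine codon in BBC3 (GCGGAC) and a serine codon in BAD (AGTGAC). Each stretch lay within a single exon. In GRCh38 coordinates of GENCODE 29, the guardian stretches were BCL2L1 at chr20:31721925-31721960 (exon 2, minus strand) and MCL1 at chr1:150578868-150578903 (exon 1, minus strand). The effector stretches were BAX at chr19:48955778-48955813 (exon 3, plus strand) and BAK1 at chr6:33575390-33575425 (exon 4, minus strand). Among the BH3-only stretches, BBC3 lay at chr19:47226582-47226617 (exon 3, minus strand) and PMAIP1 at chr18:59902664-59902699 (exon 2, plus strand). BID lay at chr22:17739418-17739453 (exon 4, minus strand). BCL2L11 lay at chr2:111150094-111150129 (exon 4, plus strand). BAD lay at chr11:64271625-64271660 (exon 3, minus strand) and BIK at chr22:43127707-43127742 (exon 3, plus strand). The core began at codon 29 of 54 in PMAIP1, the shortest coding sequence of the set, and at codon 213 of 350 in MCL1, the longest.

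Levels are FPKM (mapped fragments scaled to exon length and to library size) as the authors deposited them, so they can be compared between genes. Steps in the low FPKM values gave library sizes between 9015056 and 11966130 reads, and the same steps gave the reads behind each value, which on genes summed to 109% to 111% of these sizes. Replicates of a group differed by more than sampling noise (a chi-square of 3.69 per degree of freedom between the NC libraries and of 3.64 between the SKA3-KD libraries) and were kept as separate samples. The chi-square used the recovered reads, some of which could be off by a common factor, and that would change it. The targeted gene, SKA3, stood at 9.40 and 9.64 FPKM with the control shRNA against 3.77 and 4.12 FPKM with its own (log2 fold change -1.09, SE 0.07, limma adjusted p = 0.00806 after Benjamini-Hochberg adjustment), and its adjusted p was 0.066 without NC replicate 1 and 0.06 without NC replicate 2. Markers of the labelled cell type were in part missing. KRT5, KRT14 and KRT6A were at or below 0.103 FPKM in every library, TP63 and CDH1 were at or below 0.58 FPKM, and DSG3 was not analysed here. KRT17, EPCAM and SFN were measured at a mean of at least 1 FPKM, and the summed level of the 8 squamous epithelial markers was 193 and 208 FPKM in NC and 167 and 189 FPKM in SKA3-KD. Of those 3 markers, KRT17 was lower in SKA3-KD (log2 fold change -0.53, SE 0.11, adjusted p = 0.0396, limma, and 0.0596 to 0.133 with 1 library left out, 0.121 without the filter on low FPKM and 0.0751 without the trend). The summed levels of the markers of other cell types were 6.41 to 7.49 FPKM for fibroblasts, 0.798 to 1.38 for leukocytes and 0.0633 to 0.0968 for endothelium. The part of the keratin difference in the results on the family was not tested. In bulk libraries a smaller share of cells with a transcript and less of it per cell cannot be told apart.

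Across the 12645 genes whose mean FPKM reached 1, limma on log2(FPKM + 1) gave adjusted p-values under 0.05 to 779 genes higher in SKA3-KD (6.16%) and 772 lower (6.11%), or 12.3% in either direction. All 10 members passed that filter. BCL2L1 and BIK rose, so 2 of 10 members were higher and 0 were lower by limma. On the recovered reads, limma voom called BCL2L1 and BAK1 higher but not BIK, and 0 members lower, against 13.5% of all genes higher and 12.1% lower in that fit. With any 1 library left out limma called 0 members, and 0 to 46 genes higher and 0 to 135 lower in all. Since those fits called few genes or none, a call lost in them is not particular to the gene, here and below. At an unadjusted p under 0.05 stood 4 of 10 members (BCL2L1, BAK1 and BIK higher, PMAIP1 lower), against 31.3% of all genes tested. Except for values credited to limma voom or to another setting, fold changes are on the log2(FPKM + 1) scale, which understates changes of low genes. An exact permutation test of 2 libraries against 2 cannot go below p = 0.333, so each p-value draws on limma's estimate of the spread over many genes.

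**Figure D1:**
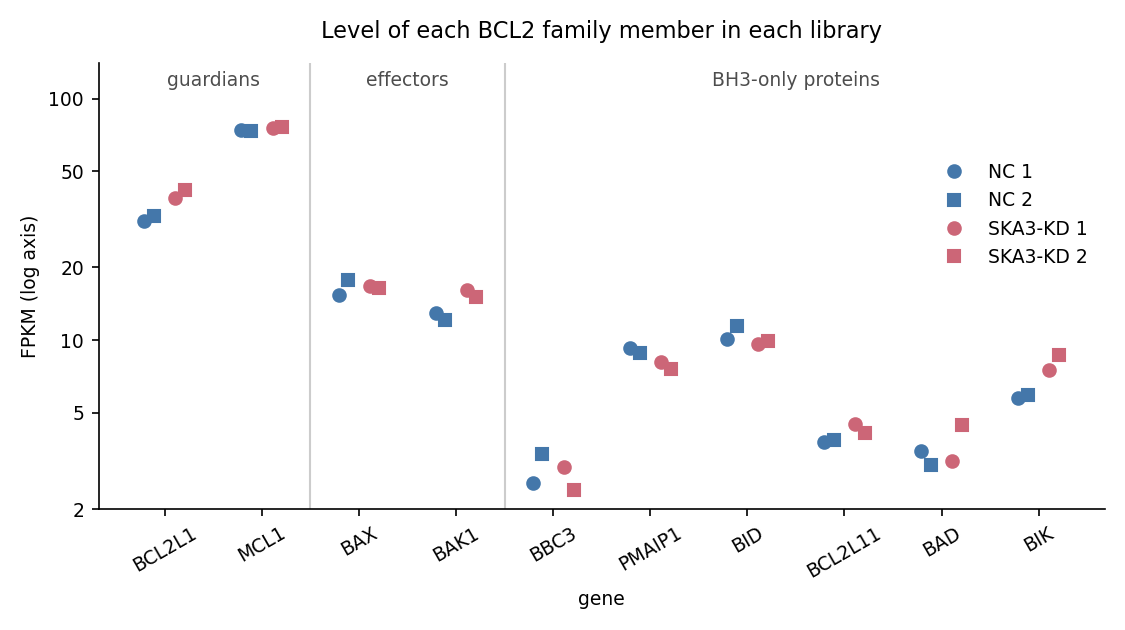
FPKM of each member (log vertical axis) in NC 1 and 2 (blue) and SKA3-KD 1 and 2 (red), grouped by role. MCL1 lies between 73.3 and 76.1 FPKM in all libraries, BCL2L1 separates 31.0 and 32.6 in NC from 38.9 and 41.7 in SKA3-KD, and the points of BAX, BBC3 and BAD mix.

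Of the guardians, BCL2L1 rose and MCL1 stayed within narrow limits. BCL2L1 (ENSG00000171552, GRCh38 chr20:31664452-31723989, minus strand) measured 31.0 and 32.6 FPKM in the NC libraries 1 and 2, and 38.9 and 41.7 FPKM in the SKA3-KD libraries 1 and 2. Both SKA3-KD libraries were above both NC libraries, with a gap larger than the distance between replicates of either group. The read numbers behind these levels ran from 974 in NC 2 to 1629 in SKA3-KD 2. The SKA3-KD mean of 40.3 ± 1.97 (SD, n = 2) was 26.7% above the NC mean of 31.8 ± 1.12 (SD, n = 2). This gave a log2 fold change of 0.33 (SE 0.07, 95% interval 0.16 to 0.50), with an adjusted p of 0.0395 by limma. The call was lost without any 1 of the libraries, in fits that called few genes or none of all tested. That loss is therefore not particular to BCL2L1, and its fold change there stayed between 0.28 and 0.38. The call was also lost without the filter on low FPKM (adjusted p = 0.0927) and without the trend in limma (adjusted p = 0.0808). BCL2L1 gives rise by splicing to the protective BCL-XL and a shorter product that promotes death, and a value per gene does not separate them. In GENCODE 29, 43.0% of its exon bases are also exons of the antisense gene ABALON, which was not analysed here, and the strand setting of the authors' counting is not given in the sources used here.

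MCL1 (ENSG00000143384, chr1:150574551-150579738, minus strand), a guardian whose protein turns over fast, had the highest level of the 10. It measured 74.4 and 73.3 FPKM in NC and 75.3 and 76.1 FPKM in SKA3-KD, on 2786 to 3786 reads. The SKA3-KD values were above the NC values by about as little as replicates differed from each other. Its log2 fold change of 0.036 had a 95% interval of -0.10 to 0.17 (adjusted p = 0.682, limma). MCL1 lay above 95.6% of the genes tested and BCL2L1 above 89.5%.

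Of the effectors, BAK1 levels did not overlap between the groups and BAX levels did, and neither gene passed the threshold in the limma fit reported. BAK1 (ENSG00000030110, chr6:33572547-33580293, minus strand), the effector that resides in the mitochondrial membrane, measured 12.9 and 12.1 FPKM in NC, and 16.1 and 15.1 FPKM in SKA3-KD. The groups did not overlap, and the SKA3-KD mean of 15.6 ± 0.716 (SD, n = 2) was 24.8% above the NC mean of 12.5 ± 0.603 (SD, n = 2). The log2 fold change of 0.30 (SE 0.07, 95% interval 0.12 to 0.48) missed the threshold at an adjusted p of 0.0579 by limma. BAK1 passed in 3 of 8 alternative fits of the 4 libraries, and its adjusted p with 1 library left out was 0.125 to 0.239. The reads were 351, 247, 372 and 404 in the order of the libraries. The processed pseudogene BAK1P1 was at 0.162 to 0.422 FPKM, and BAK1P2 was not analysed here.

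BAX (ENSG00000087088, chr19:48954815-48961798, plus strand), the effector that moves from the cytosol to mitochondria, measured 15.4 and 17.7 FPKM in NC and 16.8 and 16.5 FPKM in SKA3-KD. The SKA3-KD values lay between the NC values. Between the groups the log2 fold change was 0.012 (95% interval -0.20 to 0.22, adjusted p = 0.936, limma), and it turned to -0.0098 under quantile normalization. These values stood on 412 to 504 reads per library. The ratio of BAX to BAK1 was 1.19 and 1.46 in NC and 1.04 and 1.09 in SKA3-KD.

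**Figure D2:**
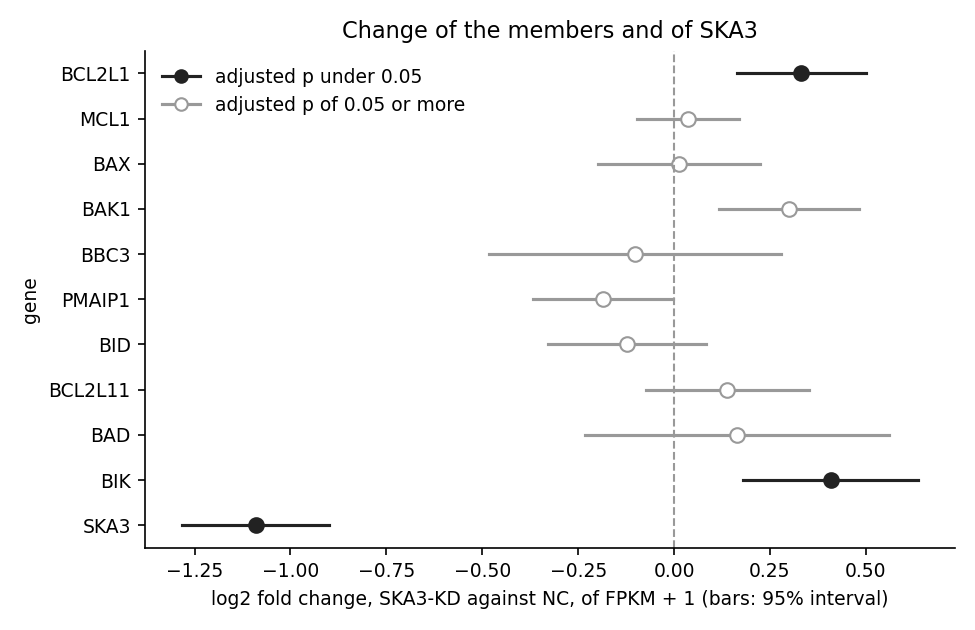
Log2 fold change of SKA3-KD against NC on FPKM + 1 (horizontal axis) of the members and SKA3, with 95% intervals from limma. Filled points have an adjusted p under 0.05: BCL2L1 at 0.33, BIK at 0.41 and SKA3 at -1.09, while the interval of BAK1 lies above 0 with an adjusted p of 0.0579.

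Among the 6 BH3-only members, BIK rose, and the others did not pass the test. BIK (ENSG00000100290, chr22:43110748-43129712, plus strand), a BH3-only protein found mainly at the endoplasmic reticulum, measured 5.79 and 5.94 FPKM in NC, and 7.53 and 8.72 FPKM in SKA3-KD. The NC values lay close together, and both SKA3-KD values were above them but further apart from each other. The mean of 8.12 ± 0.844 (SD, n = 2) was 38.6% above 5.86 ± 0.105 (SD, n = 2), the largest relative rise of the 10. The log2 fold change of 0.41 (SE 0.09, 95% interval 0.18 to 0.64) had an adjusted p of 0.0484 by limma, just under the threshold, and of 0.0511 with median-of-ratios scaling and 0.0506 with quantile normalization. BIK is the member with the shortest exons (953 bases), and its levels stood on 51 (NC 2) to 98 reads (SKA3-KD 2). Counting error alone gave an SE of 0.17 on the log2 ratio, larger than the limma SE, and limma voom on the recovered reads gave 0.47 (SE 0.21, adjusted p = 0.109). Without NC 1, NC 2, SKA3-KD 1 or SKA3-KD 2 the adjusted p was 0.163, 0.136, 0.0939 or 0.177, and it was 0.131 without the filter and 0.0772 without the trend in limma.

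PMAIP1 and BBC3 encode NOXA, which binds MCL1 in preference to BCL-XL, and PUMA, which binds every guardian. PMAIP1 (chr18:59899948-59904306, plus strand) measured 9.27 and 8.88 FPKM in NC and 8.13 and 7.59 FPKM in SKA3-KD. Both SKA3-KD libraries were below both NC libraries, by more than the distance between replicates of either group. Its log2 fold change was -0.19 (95% interval -0.37 to -0.0038, adjusted p = 0.154, limma). BBC3 (chr19:47220822-47232766, minus strand) measured 2.58 and 3.39 FPKM in NC and 2.999 and 2.40 FPKM in SKA3-KD, the lowest mean of the 10 in both groups. Its groups overlapped on 90 to 98 reads per library. A log2 fold change of -0.10 had a 95% interval of -0.48 to 0.28 (adjusted p = 0.678, limma).

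BID, BCL2L11 and BAD carry signals from death receptors, lost survival factors and growth factor signalling. BID (chr22:17734138-17774770, minus strand), which caspase 8 cleaves into its active form, measured 10.1 and 11.4 FPKM in NC and 9.63 and 9.96 FPKM in SKA3-KD. The SKA3-KD values were the lower ones, at a distance smaller than that between the NC replicates. Its log2 fold change was -0.12 (95% interval -0.33 to 0.08, adjusted p = 0.357, limma), and it was -0.043 without NC 2 and -0.20 without NC 1. BCL2L11 (chr2:111119378-111168447, plus strand) encodes BIM, which binds all guardians, and measured 3.78 and 3.88 FPKM in NC and 4.50 and 4.14 FPKM in SKA3-KD. Its groups did not overlap, and the log2 fold change of 0.14 had a 95% interval of -0.07 to 0.35 (adjusted p = 0.317, limma).

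A gene on the other strand, MIR4435-2HG, shares 10.9% of the exon bases of BCL2L11, and it was looked at after its values were seen. It stood at 4.29 and 4.08 FPKM in NC and at 6.29 and 6.39 in SKA3-KD. It rose by 0.50 on the log2 scale (limma adjusted p of 0.0222, of 0.0888 to 0.102 with 1 library left out and of 0.0734 without the filter), and its part in the BCL2L11 values was not tested. BAD (chr11:64269830-64284704, minus strand), which phosphorylation keeps bound to 14-3-3 proteins, measured 3.47 and 3.05 FPKM in NC and 3.16 and 4.47 FPKM in SKA3-KD. Its groups overlapped, since SKA3-KD 1 lay between the NC libraries and SKA3-KD 2 above them. On the log2 scale the change was 0.16 (95% interval -0.23 to 0.56, adjusted p = 0.514, limma) on 47 to 90 reads. GPR137, on the other strand, shares 23.7% of the exon bases of BAD. It measured 13.2 and 16.8 FPKM in NC and 17.8 and 21.0 FPKM in SKA3-KD, several times the level of BAD. The log2 fold change of GPR137 was 0.35 (adjusted p = 0.154, limma), and its part in the BAD values was not tested.

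Counted over the set, 7 of 10 members had a positive and 3 a negative fold change, and their median was 0.09 against 0.01 over all genes tested. The groups did not overlap in 7 members, 5 higher and 2 lower in SKA3-KD. Over all genes tested 61.6% did not overlap (32.3% higher and 29.2% lower), so the count of members is close to that share. The 2 members called higher compare with 6.16% of all genes.

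The order of levels was nearly the same in the groups. From the top it ran MCL1, BCL2L1, BAX, BAK1, BID, PMAIP1, BIK, BCL2L11, BAD and BBC3 in NC, where only the ranges of BAD and BBC3 overlapped between neighbours. BIK and PMAIP1 changed places in SKA3-KD, where their ranges overlapped, as did those of BCL2L11 and BAD. The ratio of BIK to PMAIP1 was 0.624 and 0.668 in NC and 0.925 and 1.15 in SKA3-KD.

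Guardian transcripts made up most of the summed level. BCL2L1 and MCL1 together came to 105 and 106 FPKM in NC and to 114 and 118 FPKM in SKA3-KD, and the effectors to 28.3 and 29.8 against 32.9 and 31.6 FPKM. Neither sum overlapped between the groups, and neither did 61.6% of all single genes tested. Between the group means, BCL2L1 added 8.48 FPKM to the guardian sum and MCL1 added 1.87 FPKM. BAK1 added 3.10 FPKM to the effector sum and BAX 0.116 FPKM, so each rise came mostly from 1 gene. The 6 BH3-only members summed to 35.0 and 36.6 FPKM in NC and to 36.0 and 37.3 FPKM in SKA3-KD, with overlap. As shares of the 10 members, BCL2L1 went from 18.4% and 18.9% in NC to 21.2% and 22.3% in SKA3-KD, and MCL1 from 44.1% and 42.6% to 41.1% and 40.8%. The ratio of guardians to effectors overlapped between the groups, at 3.72 and 3.56 in NC and 3.47 and 3.72 in SKA3-KD. BCL2L1 stood at 2.01 and 1.85 times the level of BAX in NC and at 2.32 and 2.52 times in SKA3-KD. Its ratio to BAK1 was 2.40 and 2.70 in NC and 2.41 and 2.76 in SKA3-KD, with overlap. MCL1 stood at 8.02 and 8.25 times the level of PMAIP1, whose product binds it, in NC and at 9.26 and 10.0 times in SKA3-KD. BCL2L1 went the other way against BIK, at 5.36 and 5.49 times its level in NC and 5.17 and 4.78 times in SKA3-KD. The ratio of guardians to BH3-only members was 3.01 and 2.90 in NC and 3.18 and 3.16 in SKA3-KD, without overlap. These sums and ratios of RNA were not tested, and they do not give the ratio of the proteins.

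**Figure D3:**
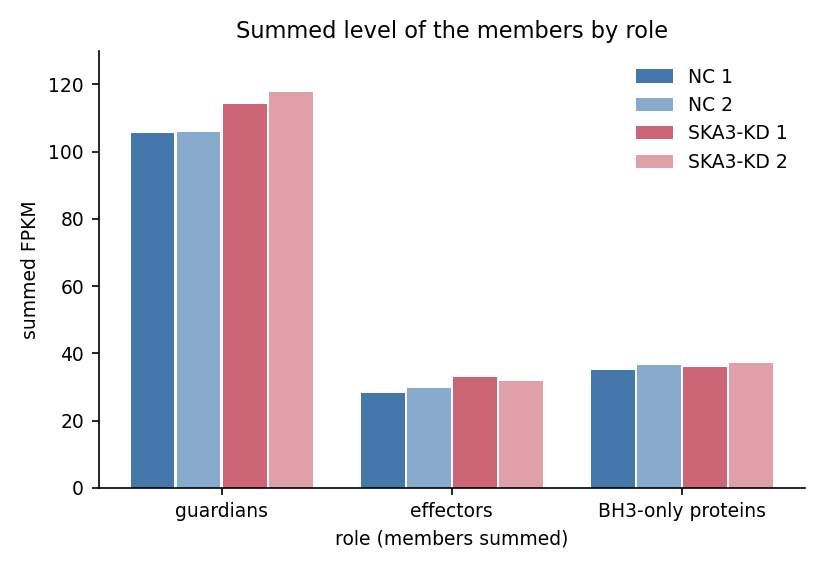
Summed FPKM (vertical axis from 0) of the guardians BCL2L1 and MCL1, the effectors BAX and BAK1, and the 6 BH3-only members, with 1 bar per library and no error bar. Guardian bars reach 105 and 106 FPKM in NC and 114 and 118 FPKM in SKA3-KD, and the BH3-only bars lie between 35.0 and 37.3 FPKM.

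A list of 13 further family genes was followed, of which 7 passed the filter. Of these 7, 1 rose and 1 fell, against 6.16% of all genes tested higher and 6.11% lower. BCL2L12, a BCL2-like protein of the nucleus and cytosol, measured 17.8 and 18.2 FPKM in NC and 24.2 and 23.4 FPKM in SKA3-KD, on 286 to 480 reads. Its groups were well apart, and the log2 fold change was 0.38 (SE 0.06, adjusted p = 0.025, limma). IRF3, on the other strand, shares 33.1% of its exon bases and was at 13.0 to 14.9 FPKM (log2 fold change 0.12 at an adjusted p of 0.283, limma). BCL2L15, a small BCL2-like protein, measured 3.91 and 3.52 FPKM in NC and 1.06 and 1.496 FPKM in SKA3-KD, on 92 to 398 reads. Both SKA3-KD values were far below the NC values, with a log2 fold change of -1.05 (SE 0.14, adjusted p = 0.0186, limma). With 1 library left out the adjusted p was 0.0824 to 0.129 for BCL2L12 and 0.0427 to 0.0958 for BCL2L15, and without the filter on low FPKM it was 0.0638 and 0.0767. BCL2L12 also lost its call without the trend in limma (adjusted p = 0.0569).

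BCL2, the founding guardian, was low in these cells. It measured 0.262 and 0.304 FPKM in NC and 0.564 and 0.542 FPKM in SKA3-KD, on 48, 42, 88 and 98 reads, and was below the filter. Both SKA3-KD values were above both NC values, and their mean of 0.553 FPKM was 95.6% above the NC mean of 0.283 FPKM. In the fit without a filter on low FPKM the log2 fold change of FPKM + 1 was 0.28 (adjusted p = 0.263, limma). That scale understates changes at such low levels. BCL2L2, which encodes the guardian BCL-W, measured 5.63 and 5.56 FPKM in NC and 6.07 and 5.95 FPKM in SKA3-KD (log2 fold change 0.09, adjusted p = 0.432, limma). It shares exons with the readthrough gene BCL2L2-PABPN1, so its reads are uncertain.

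Around the family, 6 lists covered the remaining family, the caspases, the inhibitors of apoptosis, mitochondrial partners, death receptors and regulators of the members, with 58 genes counted here. Of their 48 tested genes, 2 were higher (BCL2L12 and BIRC5) and 1 was lower (BCL2L15), and the median log2 fold change was 0.02. List genes left out include some past the threshold, so these counts are no share to set beside that of all genes. Of 9 tested genes counted for the apoptosome and caspases, 6 had a negative fold change, with a median of -0.20, and the smallest adjusted p among those counted was 0.0537 (limma). Among 8 tested inhibitors of apoptosis and proteins released from mitochondria, BIRC5 rose from 5.65 and 4.62 to 8.96 and 9.09 FPKM (log2 fold change 0.71, SE 0.10, adjusted p = 0.0212, limma). BIRC5 encodes survivin, which also acts in the chromosomal passenger complex of mitosis. With 1 library left out the adjusted p of BIRC5 was 0.0676 to 0.0883, and without the filter it was 0.077.

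The 4 mitochondrial partners, which include the VDAC channels, and the 8 death receptors and adaptors, both counted whole, had no gene past the threshold, with smallest adjusted p-values of 0.27 and 0.0788 (limma). Unadjusted p-values under 0.05 were found for 0 and 2 of them, and their medians were -0.04 and 0.02. Of 12 tested regulators counted here, 8 had a positive and 4 a negative fold change, with a median of 0.09 and a smallest adjusted p of 0.0538 among those counted (limma).

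**Figure D4:**
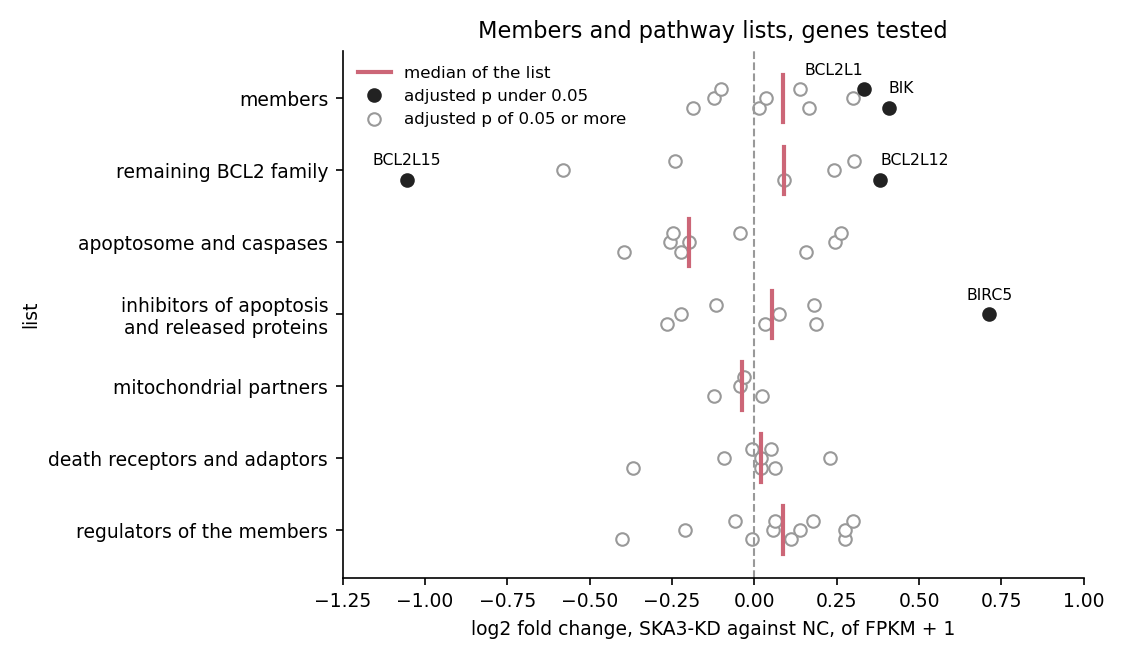
Log2 fold change of SKA3-KD against NC on FPKM + 1 (horizontal axis) for the tested genes of the members and those counted in the 6 lists, with the median of each list as a red line. Filled, labelled points have an adjusted p under 0.05, and the list of the apoptosome and caspases has the lowest median, -0.20.

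Over the 8 alternative fits that used the 4 libraries, BCL2L1 passed in 6, BAK1 in 3 and BIK in 3. MCL1, BAX, BBC3, PMAIP1, BID, BCL2L11 and BAD passed in none of theirs, with a smallest adjusted p of 0.113, that of PMAIP1.

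**Figure D5:**
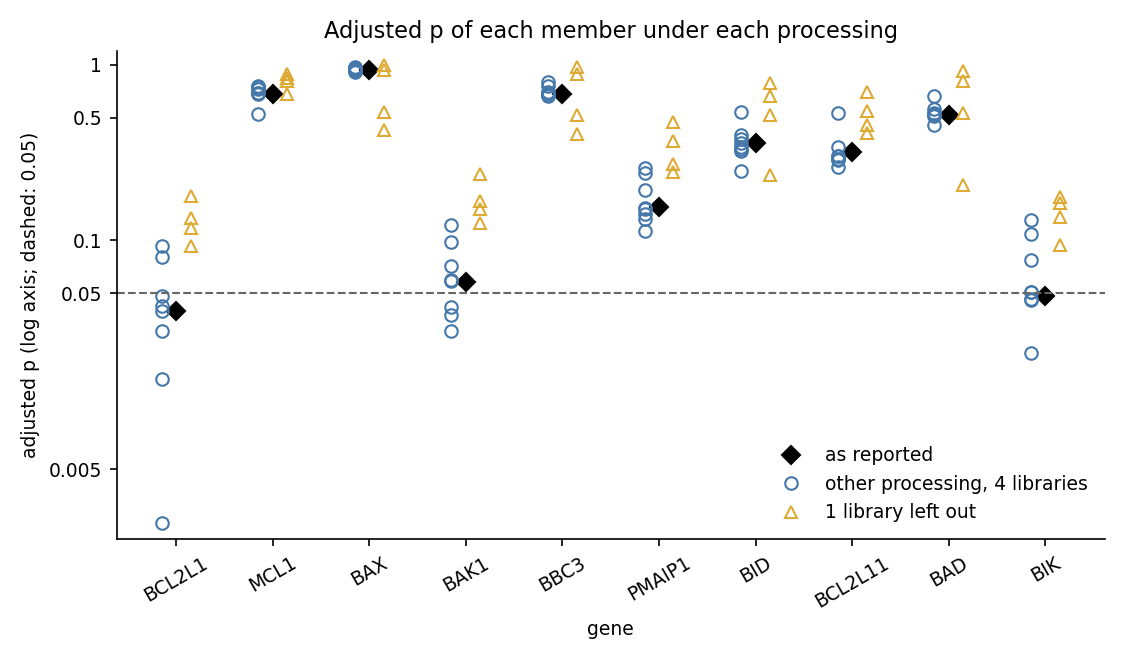
Adjusted p of each member (log vertical axis, threshold of 0.05 dashed) as reported, under 7 or 8 other ways of processing the 4 libraries, and with 1 library left out. Points of BCL2L1, BAK1 and BIK lie on both sides of the threshold, no member lies under it with a library left out, and those of the other 7 members stay above it throughout.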

How the data were processed

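Total RNA libraries of TU-177 cells, 4 in all, were sequenced on an Illumina HiSeq instrument. The authors deposited FPKM values per gene and library, divided by gene length and library size, and no further scaling is stated. The submitters' processing notes name the hg 19 build, Bowtie2 2.2.8, HISAT2, StringTie 1.3.1 and Cuffdiff 2.1.1 without their roles. Annotation and strand setting are not given in the sources used here. Symbols, spans and exon overlaps came from GENCODE 29 (GRCh38) by Ensembl identifier, and 22741 genes had a symbol. Each low FPKM value was taken as a whole multiple of 1 read, which gave reads within a tolerance of 0.01 for nearly all genes above 0. The GENCODE length gave them directly for 68.1% of those genes. Where it did not (MCL1, BAK1, BBC3, BID, BCL2L11 and BCL2 among others), another length that gave whole reads was searched for. Whole reads were thus largely ensured there, and those reads could be off by a factor common to the 4 libraries. Counting errors cover counting only.

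SKA3-KD was compared with NC by limma 3.58.1 in R 4.3.3 (lmFit, eBayes with a trend) on log2(FPKM + 1) for genes whose mean FPKM reached 1, two-sided, with Benjamini-Hochberg adjustment over all of them and a threshold of 0.05. Lists were described by counts and medians. The genes named are the 10 members, SKA3, list genes past the threshold, BCL2 and BCL2L2, with markers given as lists. Some list genes are not reported here and were left out of every list count and median, although some passed the threshold. Members and lists were chosen with earlier results of these data known. Other settings tried were quantile normalization or median-of-ratios scaling, a limit of 5 on the mean FPKM or none, eBayes with no trend, a pseudocount of 0.1, the replicate block, each library left out, and voom on recovered reads. Steps were tested on simulated data.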

Additional observations from a re-analysis of the deposited data

How the results depend on the processing

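With 2 libraries a group, the counts of calls depended on the processing more than the fold changes did. The 772 lower and 779 higher genes became 81 and 48 without a filter on low FPKM, 381 and 312 without a trend, 1529 and 1707 with limma voom on the recovered reads, 887 and 993 with a mean FPKM of at least 5, 782 and 726 with median-of-ratios scaling, and 745 and 723 with quantile normalization. With 1 library left out they ranged from 0 to 135 lower and from 0 to 46 higher, where the lone library of a group is assumed to vary like the other group. Of the members, 2 were called higher as reported, 3 with a mean FPKM of at least 5, 1 with median-of-ratios scaling, 1 with quantile normalization, and 0 without a filter, without a trend or with any library left out (0 to 0). With voom 2 were called, BCL2L1 and BAK1. These counts of members are to be read beside the gene counts of the same fits above. The fit without a filter tested 26504 genes, and a mean FPKM of at least 5 left BBC3, BCL2L11 and BAD untested. The other fits tested 12645 genes. No alternative called a member lower. The list genes called, 1 lower and 2 higher as reported, were 0 and 0 without a filter, 4 and 5 with a mean FPKM of at least 5, 9 and 8 with voom, 2 lower with a pseudocount of 0.1, 1 higher without a trend, and 0 to 1 lower and 0 to 0 higher with 1 library left out. The log2 fold change of SKA3 ranged from -1.14 to -1.04 with 1 library left out, and from -1.26 (voom on the recovered reads) to -1.09 over the other fits. The sign of BAX turned under quantile normalization (-0.0098) and without NC replicate 1 (range with 1 library left out -0.081 to 0.11), that of BBC3 without NC replicate 2 or SKA3-KD replicate 2 (range -0.25 to 0.044), and that of BAD without SKA3-KD replicate 2 (range -0.032 to 0.36), none of them past the threshold in any fit. Why counts and signs differed between the fits was not tested.

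Replicates 1 and 2 share a number in the labels but nothing says that it pairs them, and the deviations of same-numbered libraries from their group means correlated at 0.0973 over 12645 genes. With the replicate number as a block 965 genes were lower and 1002 higher, 3 members were higher (BAK1 joined, at an adjusted p of 0.0421), the list genes called were 4 lower and 5 higher, and SKA3 stayed at -1.09 (adjusted p = 0.0175). Depth limits the low members most: BIK, BAD and BBC3 stood on 47 to 98 reads per library.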
